A study of Homo sapiens with 4 samples.

Results

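The genes described here encode the proteasome. They were taken as every symbol in the count tables that reads PSM followed by a letter from A to G and a number, together with POMP, which gave 49 of 56655 symbols. To ask how these genes differ when the transcription factor FOXK2 is targeted, RNA-seq of OVCAR5 cells stably transduced with a FOXK2-directed short hairpin RNA (shFOXK2, n = 2 libraries) was compared with OVCAR5 cells carrying a control hairpin (shCtrl, n = 2 libraries). OVCAR5 is an established human cancer cell line, labelled as a high grade serous ovarian line taken from ascites, and it was grown in RPMI medium with serum. Both groups carried a lentiviral hairpin vector and differed in the hairpin, which was a nontargeting pLKO.1-puro construct in shCtrl and, by the study's description, a single FOXK2-directed sequence in shFOXK2, so an effect of that sequence on other transcripts and an effect of FOXK2 cannot be told apart. The submitters called the libraries of a group biological duplicates.

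The proteasome is the protease that degrades ubiquitin-tagged proteins in the cytosol and nucleus. Its 20S core is a barrel of stacked rings built from alpha subunits (PSMA genes) and beta subunits (PSMB genes), and the proteolytic sites lie in the beta subunits PSMB5, PSMB6 and PSMB7. Cells exposed to interferon make the replacements PSMB8, PSMB9 and PSMB10, and the core that holds these is called the immunoproteasome, which cuts peptides that suit presentation on MHC class I. The 19S cap, with its ATPases (PSMC genes) and other subunits (PSMD genes), receives ubiquitinated substrates and unfolds them, and PSME1 and PSME2 form PA28, another cap that interferon raises. Chaperones assemble the core (PSMG genes and POMP) and the base of the cap (PSMD5, PSMD9 and PSMD10).

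The promoters of the immunoproteasome genes, of the PA28 genes and of PSMB5 are shown because the contrast between these genes is the one that the comparison turns on. The sequences came from the RefSeq promoter table (assembly GRCh38.p14), from 250 bases before to 20 bases after an annotated start, and 43 of the 49 genes had an entry, with 52 windows in all. PSMB6 and PSMB7 were among the genes without an entry, so PSMB5 is the constitutive catalytic gene shown. Capitals mark an interferon response element, searched on both strands as GAAA, any 2 bases, then GAAA, which reads TTTC, 2 bases, TTTC on the other strand. TAP1, the peptide transporter gene that starts back to back with PSMB9, is included for that reason. Each line runs 5′ to 3′ along the gene's own strand.
PSMB8, second annotated start, chr6:32844028-32844297, minus strand: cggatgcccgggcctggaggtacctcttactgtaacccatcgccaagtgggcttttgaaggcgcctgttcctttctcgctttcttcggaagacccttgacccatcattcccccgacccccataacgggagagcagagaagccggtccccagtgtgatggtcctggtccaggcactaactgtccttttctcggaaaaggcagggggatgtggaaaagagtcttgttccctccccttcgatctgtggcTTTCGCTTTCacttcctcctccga
PSMB9, chr6:32853942-32854211, plus strand: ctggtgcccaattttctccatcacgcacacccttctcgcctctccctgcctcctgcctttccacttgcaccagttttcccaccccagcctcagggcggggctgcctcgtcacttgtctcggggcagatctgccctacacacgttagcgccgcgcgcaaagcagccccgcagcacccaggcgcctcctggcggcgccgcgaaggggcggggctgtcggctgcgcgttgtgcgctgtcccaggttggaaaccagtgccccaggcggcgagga
TAP1, chr6:32853685-32853954, minus strand: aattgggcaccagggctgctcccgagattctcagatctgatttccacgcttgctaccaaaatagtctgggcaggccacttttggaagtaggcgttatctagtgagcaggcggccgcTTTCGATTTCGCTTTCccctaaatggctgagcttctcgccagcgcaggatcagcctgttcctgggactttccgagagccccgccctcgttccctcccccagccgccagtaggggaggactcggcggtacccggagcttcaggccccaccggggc
PSMB10, chr16:67936831-67937100, minus strand: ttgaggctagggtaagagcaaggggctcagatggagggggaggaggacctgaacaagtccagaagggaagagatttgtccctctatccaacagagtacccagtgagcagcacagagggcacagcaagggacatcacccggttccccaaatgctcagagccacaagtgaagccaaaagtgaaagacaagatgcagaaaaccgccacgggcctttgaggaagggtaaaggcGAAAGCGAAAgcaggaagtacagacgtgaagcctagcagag
PSME1, chr14:24135944-24136213, plus strand: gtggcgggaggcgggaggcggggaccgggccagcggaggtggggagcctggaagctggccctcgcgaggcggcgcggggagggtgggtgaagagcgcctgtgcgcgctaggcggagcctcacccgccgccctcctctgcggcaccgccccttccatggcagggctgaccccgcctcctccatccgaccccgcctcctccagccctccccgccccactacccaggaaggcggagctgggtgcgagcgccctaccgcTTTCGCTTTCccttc
PSME2, chr14:24146591-24146860, minus strand: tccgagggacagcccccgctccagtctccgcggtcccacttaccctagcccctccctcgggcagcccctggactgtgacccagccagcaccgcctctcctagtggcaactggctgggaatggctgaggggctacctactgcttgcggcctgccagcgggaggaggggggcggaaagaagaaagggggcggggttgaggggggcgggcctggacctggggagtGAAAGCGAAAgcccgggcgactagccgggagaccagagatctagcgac
PSMB5, chr14:23035201-23035470, minus strand: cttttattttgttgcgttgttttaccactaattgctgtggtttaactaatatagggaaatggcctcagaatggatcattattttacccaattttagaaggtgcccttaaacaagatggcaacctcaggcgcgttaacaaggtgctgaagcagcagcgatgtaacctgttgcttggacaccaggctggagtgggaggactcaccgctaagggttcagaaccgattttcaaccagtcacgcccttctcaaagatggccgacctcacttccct

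PSMB8, PSMB5 and TAP1 had 2 windows each, and the windows not printed held no element. For PSMB8 that was the upstream start, base 32844679, and at the second start, base 32844047, the element spanned the start, from base −4 to base +6. The PSMB10 element lay at −21 to −12, that of PSME2 at −28 to −19 and that of PSME1 at +6 to +15. The window of PSMB9 held no element. The RefSeq starts of PSMB9 and TAP1 lie 488 bases apart on opposite strands, and the interval between them held 2 overlapping elements, 16 bases in all, 354 bases from the PSMB9 start. The element was in 7 of the 52 windows of proteasome genes (13.5%) and in 3.3% of all 35116 promoter windows of the same length. The windows had been extended to 20 bases after the start once the PSMB8 sequence had been seen. Since the elements of PSMB8 and PSME1 reach past the start, the 13.5% depends in part on that extension. Besides PSMB8, PSMB10, PSME1 and PSME2, the genes that held it were PSMA4, PSMB4 and PSMG4. For the forkhead motif TGTTTAC, searched on both strands, 2 of 52 windows (3.85%) had a match, in PSMB2 and PSMD5, against 3.2% of all windows. The core of the antioxidant response element, TGACNNNGC, was in 13 of 52 windows (25%) and in 12% of all windows, and the interferon gamma-activated site TTCNNNGAA in 7 of 52 (13.5%) and in 7.05%. A match to the consensus of the kappa B site was present in 2 of 52 (3.85%) and in 10.4% of all windows. These are matches of letters, and no binding was measured here.

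Per library, 14284005 to 21950873 counts were available. Levels are given as CPM, counts relative to a common library total after TMM scaling, and a count of 3, taken as the floor, equals 0.134 to 0.211 CPM. FOXK2, the targeted gene, was at 80.5 and 93.4 CPM in shCtrl and at 76.35 and 59.55 CPM in shFOXK2. The shFOXK2 libraries lay below both shCtrl libraries, but FOXK2 was not called (log2 fold change −0.36, SE 0.25, adjusted p = 0.257 by the edgeR quasi-likelihood test, the test behind every adjusted p-value in this section). The paper reports lower FOXK2 mRNA by qRT-PCR and lower FOXK2 protein by western blot in OVCAR5 cells carrying FOXK2-directed hairpins. Of the 6 ovarian markers, PAX8 (log2 fold change −0.88), FOLR1 (−1.42) and MUC16 (−5.76, from 397 and 145 counts to 0 and 8) were detected and called lower, while WT1, SOX17 and EMX2 had 0 to 3 counts per library. The epithelial genes EPCAM, KRT7, KRT8, KRT18 and KRT19 were detected in every library and not called, and CDH1, which encodes E-cadherin, fell from 459 and 260 counts to 13 and 24 (log2 fold change −4.02, adjusted p = 5.12e-06). Of the markers of gastrointestinal epithelium, KRT20 fell from 210 and 234 CPM to 128 and 147.5 CPM (−0.69, adjusted p = 0.0243), and LGALS4 rose from 3 and 1 counts to 15 and 16. CDX2 and CDH17 were detected and not called, VIL1 had 3 to 7 counts and CDX1 had 0. The 6 gastrointestinal markers summed to 221 and 249 CPM in shCtrl and 139 and 157 CPM in shFOXK2. For the 6 ovarian markers the sums were 41.5 and 39.5 CPM in shCtrl and 13.85 and 13.3 CPM in shFOXK2.

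The proteasome genes moved in different directions. Of the 49 genes, 47 passed the filter on low counts and were tested. PSMA8, the testis alpha subunit, had 0 counts in all 4 libraries, and PSMB11, the thymus catalytic subunit, had 1 count in 1 shCtrl library and 0 in the others. With an adjusted p-value under 0.05 counted as a call, 9 genes were higher in shFOXK2 (19.1%) and 7 were lower (14.9%), and 31 were not called. Among all 16417 tested genes 25.7% were called higher and 22.7% lower, and the proteasome genes lay below this background in each direction. The groups did not overlap for 35 of the 47 genes (74.5%), against 75.4% of all tested genes, and the median log2 fold change was 0.04 for the proteasome genes and 0.04 for all tested genes. With scaling by library size alone the split was 12 higher and 6 lower. Without shFOXK2 replicate 2 it was 7 higher and 4 lower. The genes together took 0.748% and 0.831% of all counts in shCtrl and 0.82% and 0.859% in shFOXK2 (95% Wilson intervals of 0.744% to 0.751%, 0.827% to 0.836%, 0.815% to 0.824% and 0.855% to 0.864%, which cover counting error only). These means, 0.789% ± 0.0593 and 0.84% ± 0.0282 (SD, n = 2 each), differed by less than the SD between the shCtrl libraries.

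All 3 catalytic immunoproteasome genes fell, and PSMB9 and PSMB10 had the largest falls of the 47 genes. PSMB9, which supplies the replacement for PSMB6, was at 50.8 and 66.65 CPM in shCtrl and at 9.07 and 10.5 CPM in shFOXK2. It was 5.99-fold lower in shFOXK2 (log2 fold change −2.58, SE 0.28, adjusted p = 1.72e-05). PSMB10, the replacement for PSMB7, was at 29.0 and 37.7 CPM in shCtrl and at 7.8 and 8.63 CPM in shFOXK2 (log2 fold change −2.02, SE 0.29, adjusted p = 0.000116). PSMB8, the replacement for PSMB5, was at 83.8 and 109 CPM in shCtrl and at 38.3 and 38.8 CPM in shFOXK2 (log2 fold change −1.32, SE 0.25, adjusted p = 0.000902). For each of these genes the highest shFOXK2 library was well below the lowest shCtrl library. Among all tested genes the groups did not overlap for 75.4%, and 22.7% were called lower. PSMB8 and PSMB9 lie in the MHC region of chromosome 6 (hg38), where GENCODE places PSMB8 from 32840717 to 32844679 on the minus strand and PSMB9 from 32844136 to 32859851 on the plus strand. These spans overlap by 544 bases, because the GENCODE span of PSMB9 begins upstream of the RefSeq start used for its promoter, base 32854192. PSMB10 lies on chromosome 16 from 67934506 to 67936864 on the minus strand. The falls were called in each of the 14 alternative fits, left-out libraries included, with log2 fold changes from −2.80 to −2.22 for PSMB9, from −2.23 to −1.66 for PSMB10 and from −1.54 to −0.96 for PSMB8.

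Constitutive catalytic genes did not pass the test. PSMB6, of the caspase-like site, was at 146 and 191 CPM in shCtrl and at 120 and 188 CPM in shFOXK2, with a log2 fold change of −0.13 (95% interval −0.71 to 0.44, adjusted p = 0.711). PSMB7, of the trypsin-like site, was at 179 and 235 CPM in shCtrl and at 227 and 213 CPM in shFOXK2, with a log2 fold change of 0.09 (95% interval −0.42 to 0.59, adjusted p = 0.786). In both genes the libraries of the groups overlapped. PSMB5, of the chymotrypsin-like site, was at 235 and 322 CPM in shCtrl and at 191 and 192 CPM in shFOXK2, so the groups did not overlap. Its log2 fold change was −0.54 (95% interval −1.06 to −0.02, adjusted p = 0.0778), and PSMB5 was called lower when no filter was applied (−0.64, adjusted p = 0.0345) and when shCtrl replicate 1 was left out (−0.79, adjusted p = 0.0183).

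**Figure D1:**
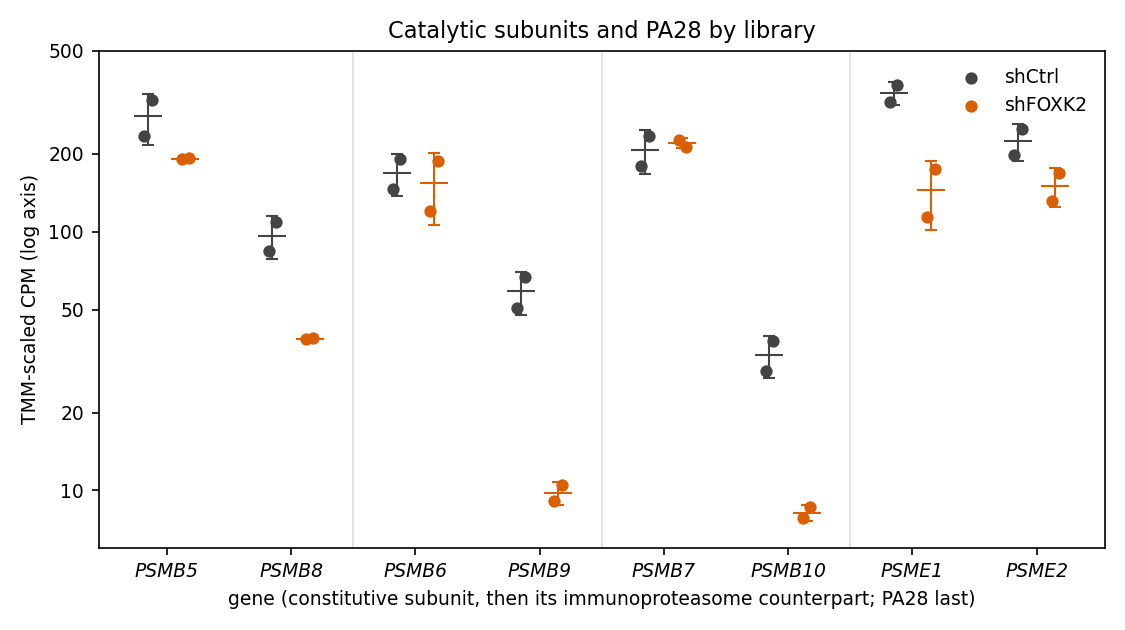
TMM-scaled CPM on a log axis for each constitutive catalytic gene beside its immunoproteasome counterpart and for the PA28 genes PSME1 and PSME2, with 1 point per library, the mean as a horizontal line and the SD as a bar (n = 2 per group). PSMB8, PSMB9, PSMB10, PSMB5, PSME1 and PSME2 are separated by group, as were 75.4% of all tested genes, whereas the libraries of PSMB6 and PSMB7 overlap.

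The mean log2 fold change was −1.98 over PSMB8, PSMB9 and PSMB10 and −0.19 over PSMB5, PSMB6 and PSMB7, a difference of −1.78, or 3.44-fold. Within single libraries the mean log2 CPM of the immunoproteasome genes minus that of the constitutive genes was −1.88 and −1.91 in shCtrl and −3.63 and −3.70 in shFOXK2. The pooled SD between replicates was 0.0349 for this mean over 3 genes, in which opposite shifts of single pairs can cancel. For PSMB9 to PSMB6 alone, the log2 ratio of CPM per kb had an SD (n = 2) of 0.0056 in shCtrl and 0.309 in shFOXK2. These SDs were 0.0117 and 0.166 for PSMB10 to PSMB7, and 0.0522 and 0.0067 for PSMB8 to PSMB5. No p-value is given, since an exact permutation test of 2 against 2 libraries cannot go below 0.333. As a share of each pair, in CPM per kb of transcript, PSMB9 made up 21.97% and 22.06% of PSMB9 plus PSMB6 in shCtrl and 5.78% and 4.33% in shFOXK2. PSMB10 made up 14.04% and 13.9% of PSMB10 plus PSMB7 in shCtrl and 3.35% and 3.92% in shFOXK2. For PSMB8 the share of PSMB8 plus PSMB5 was 24.9% and 23.9% in shCtrl and 15.7% and 15.8% in shFOXK2. On this scale the constitutive gene was the more abundant transcript of its pair in every library. Of the 3 pairs, that of PSMB8 and PSMB5 had the smallest change of share.

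**Figure D2:**
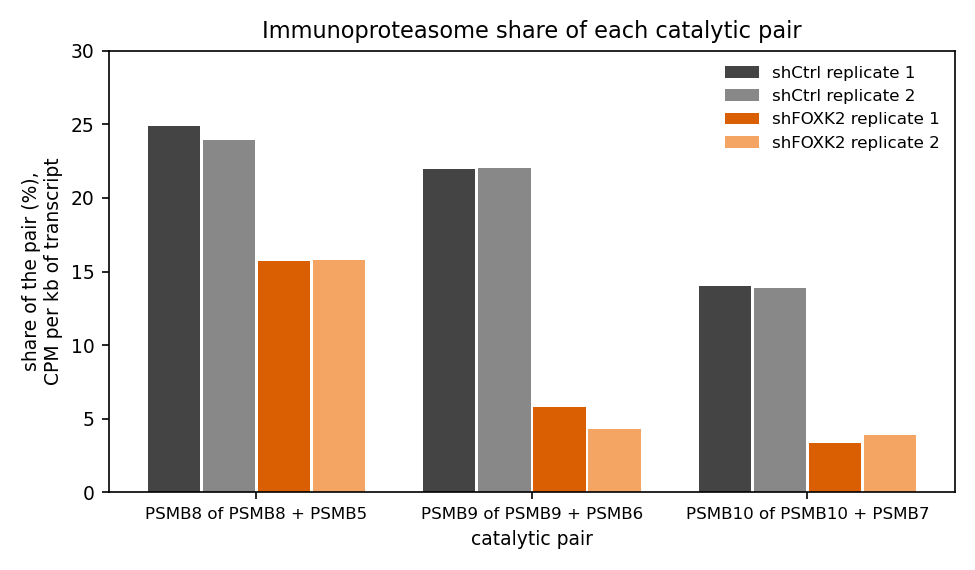
Share of each catalytic pair that the immunoproteasome gene made up, in percent of CPM per kb of transcript, with 1 bar per library. The shCtrl bars stand between 13.9% and 24.9% and the shFOXK2 bars between 3.35% and 15.8%, below both shCtrl bars in each pair.

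PA28 genes were examined next. PSME1 was at 318 and 368 CPM in shCtrl and at 114 and 175 CPM in shFOXK2 (log2 fold change −1.25, SE 0.26, adjusted p = 0.00153). PSME2 was at 198 and 250 CPM in shCtrl and at 132 and 169 CPM in shFOXK2, and its log2 fold change of −0.58 (SE 0.24, adjusted p = 0.0654) did not pass. Leaving out shCtrl replicate 1 gave −0.77 for PSME2 (adjusted p = 0.0227). For both genes the groups did not overlap, as was the case for 75.4% of all tested genes. PSME1 and PSME2 are neighbours on chromosome 14, 4394 bases apart. Of the 7 genes whose promoter window held the interferon element, PSMB8, PSMB10 and PSME1 fell, PSMA4 rose, and PSMB4, PSME2 and PSMG4 were not called. Among all tested genes 22.7% were called lower and 25.7% higher. PSMB8 and PSME1 are in this set through the extension of the window past the start, and PSMB6 and PSMB7 had no promoter entry. PSMB9, which fell most, had no element in its own window.

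Genes that regulate the immunoproteasome or handle its peptides fell in large part. Of 20 such genes, 16 were lower (80%, against 22.7% of all tested genes), 1 was higher, and IRF9, JAK2 and TAP2 were not called. The median log2 fold change was −1.24. Like the other gene lists here, this list was chosen with earlier results of these data known, so its share is not a test. IRF1, a factor known to bind interferon response elements, was at 58.2 and 63.0 CPM in shCtrl and at 29.5 and 28.5 CPM in shFOXK2 (log2 fold change −1.06, SE 0.25, adjusted p = 0.00334). STAT2, IRF2, the kinase gene JAK1 and the receptor genes IFNGR1 and IFNGR2 fell too. NLRC5, the coactivator of MHC class I genes, changed by −1.33 on the log2 scale (SE 0.32, adjusted p = 0.00393). All of the NF-kB genes in the list, RELA, NFKB1, RELB and NFKB2, were lower. TAP1 was at 79.9 and 105 CPM in shCtrl and at 22.6 and 13.5 CPM in shFOXK2 (log2 fold change −2.36, SE 0.31, adjusted p = 5.65e-05). TAPBP, ERAP1 and B2M were lower as well. ERAP2, an aminopeptidase that trims peptides, was the gene that rose, from 7.17 and 2.87 CPM in shCtrl to 18.5 and 22.5 CPM in shFOXK2 (log2 fold change 2.01, SE 0.39, adjusted p = 0.000927).

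Leukocytes express the immunoproteasome strongly, so their markers were read beside these genes. PTPRC, CD3E and CD68 had 0 to 3 counts in each library, at or under the floor. CD14 and ITGAM were detected and fell, with log2 fold changes of −1.14 (SE 0.29, adjusted p = 0.00566) and −3.35 (SE 0.52, adjusted p = 0.000205). LYZ had 0 to 14 counts and did not pass the filter, so 2 of the 7 markers were tested. The summed level of the 7 leukocyte markers was 25.3 and 30.65 CPM in shCtrl and 9.35 and 10.6 CPM in shFOXK2. Of 6 fibroblast markers, COL1A2, COL3A1 and DCN had 0 to 3 counts and LUM 1 to 5, COL1A1 was not called (0.03), and PDGFRB fell (−4.16), with a summed level of 20.5 and 18.9 CPM in shCtrl and 16.45 and 13.6 CPM in shFOXK2. In bulk RNA, fewer cells of a kind and less RNA per cell cannot be told apart.

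In the alpha ring, which forms the gate of the core, PSMA4, PSMA1 and PSMA2 rose, PSMA6 fell, and PSMA3, PSMA5 and PSMA7 were not called. That is 42.9% higher, against 25.7% of all tested genes, and 14.3% lower, against 22.7%. PSMA4 was at 180 and 166 CPM in shCtrl and at 449.9 and 638.5 CPM in shFOXK2 (log2 fold change 1.65, SE 0.25, adjusted p = 0.000173). PSMA1 was at 22.3 and 21.0 CPM in shCtrl and at 45.5 and 55.65 CPM in shFOXK2 (log2 fold change 1.22, SE 0.26, adjusted p = 0.00176). PSMA6 was at 47.8 and 48.6 CPM in shCtrl and at 27.3 and 20.7 CPM in shFOXK2 (log2 fold change −1.01, SE 0.26, adjusted p = 0.00649), and it was not called without shFOXK2 replicate 2 (−0.85, adjusted p = 0.0726). PSMA2 was low throughout, at 8.79 and 6.67 CPM in shCtrl and at 14.2 and 17.6 CPM in shFOXK2. Its log2 fold change was 1.04 (SE 0.31, adjusted p = 0.0129), and it was lost without shCtrl replicate 2 (0.78, adjusted p = 0.0843) or without shFOXK2 replicate 2 (0.84, adjusted p = 0.0606). The alpha subunits take equal places in the ring, yet the log2 fold changes of their transcripts ran from −1.01 to 1.65. The genes not called had log2 fold changes of 0.31 for PSMA3, 0.13 for PSMA7 and −0.13 for PSMA5. PSMA7 was at 335 and 447 CPM in shCtrl and at 427 and 426 CPM in shFOXK2, between its control values.

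The beta subunits without a proteolytic site, PSMB1, PSMB2, PSMB3 and PSMB4, were not called, with log2 fold changes of −0.24, −0.36, 0.02 and −0.43. PSMB4 was at 269 and 359 CPM in shCtrl and at 246 and 219 CPM in shFOXK2 (95% interval −0.95 to 0.08, adjusted p = 0.15). Leaving out shCtrl replicate 1 gave a call for PSMB4 (−0.66, adjusted p = 0.0476). Their summed level was 1013 and 1346 CPM in shCtrl and 1018 and 1003 CPM in shFOXK2. The constitutive 20S genes as a whole were 7 alpha and 7 beta genes. They held 3 called higher (21.4%, against 25.7% of all tested genes) and 1 called lower (7.14%, against 22.7%).

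In the ring of ATPases that unfolds substrates, PSMC1, PSMC6 and PSMC5 rose, PSMC4 fell, and PSMC2 and PSMC3 were not called. That is 50% higher, against 25.7% of all tested genes, and 16.7% lower, against 22.7%. PSMC1 was at 30.1 and 33.7 CPM in shCtrl and at 80.3 and 118.7 CPM in shFOXK2 (log2 fold change 1.64, SE 0.27, adjusted p = 0.000316). Its exons share 76.1% of their bases with NRDE2 on the opposite strand, and the strand setting of the counting was not given in the sources used here, so reads of these genes cannot be told apart. NRDE2 itself stood at 0.63 on the log2 scale (SE 0.27, adjusted p = 0.0683). PSMC6 was at 38.8 and 32.6 CPM in shCtrl and at 79.9 and 76.75 CPM in shFOXK2 (log2 fold change 1.13, SE 0.25, adjusted p = 0.00222), and with offsets on the GC or A content of transcripts it was not called (0.21 and 0.23). PSMC5 was at 168 and 202.5 CPM in shCtrl and at 294 and 345 CPM in shFOXK2 (log2 fold change 0.79, SE 0.23, adjusted p = 0.0133). It was lost without shCtrl replicate 1 (0.62, adjusted p = 0.0774) and without shFOXK2 replicate 2 (0.63, adjusted p = 0.108). PSMC4 was at 228 and 288 CPM in shCtrl and at 175 and 153 CPM in shFOXK2 (log2 fold change −0.65, SE 0.24, adjusted p = 0.0347), and it was lost without shCtrl replicate 2 (−0.55, adjusted p = 0.111) or shFOXK2 replicate 2 (−0.59, adjusted p = 0.158). For PSMC3 the log2 fold change was 0.58 (adjusted p = 0.0619), and without shCtrl replicate 2 it was 0.74 (adjusted p = 0.0352). For all 6 ATPase genes the groups did not overlap, as was the case for 75.4% of all tested genes.

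The 11 other 19S genes tested form the scaffold, lid and ubiquitin receptors of the cap. Of these, 1 rose (9.09%, against 25.7% of all tested genes), 1 fell (9.09%, against 22.7%) and 9 were not called. The scaffold genes PSMD1 and PSMD2, whose products are the largest subunits of the cap, went opposite ways. PSMD1 was at 243 and 204 CPM in shCtrl and at 455 and 587 CPM in shFOXK2 (log2 fold change 1.22, SE 0.24, adjusted p = 0.00115). PSMD2 was at 703.5 and 888 CPM in shCtrl and at 599.9 and 395 CPM in shFOXK2 (log2 fold change −0.68, SE 0.26, adjusted p = 0.048). The PSMD2 fall was lost without shCtrl replicate 2 (−0.57, adjusted p = 0.0919) or shFOXK2 replicate 2 (−0.44, adjusted p = 0.32). PSMD14, the deubiquitinase of the lid, was at 130 and 108 CPM in shCtrl and at 176 and 179 CPM in shFOXK2, with a log2 fold change of 0.58 (95% interval 0.08 to 1.07, adjusted p = 0.0539). PSMD4, a ubiquitin receptor, had a log2 fold change of −0.02 (95% interval −0.53 to 0.49, adjusted p = 0.958), and the groups overlapped. The lid genes PSMD3, PSMD6, PSMD7, PSMD8, PSMD11, PSMD12 and PSMD13 ranged from −0.37 (PSMD3) to 0.32 (PSMD12). PSMD3 was at 351 and 432 CPM in shCtrl and at 347 and 256 CPM in shFOXK2, and PSMD12 at 121 and 94.3 CPM and at 142 and 127.5 CPM. PSMD6, PSMD11 and PSMD7 lay in between at 0.29, 0.23 and −0.25. For these 5 lid genes the groups did not overlap (75.4% among all tested genes) and no test passed, whereas the groups of PSMD8 (0.04) and PSMD13 (0.09) overlapped. None of the chaperones of the base, PSMD5, PSMD9 and PSMD10, was called, and their log2 fold changes were −0.11, 0.26 and −0.38.

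Assembly of the 20S core is served by 5 of the genes, of which 2 rose (40%, against 25.7% of all tested genes) and 3 were not called. POMP, the maturation factor that escorts the immature core, was at 109.5 and 123 CPM in shCtrl and at 220 and 259.5 CPM in shFOXK2 (log2 fold change 1.04, SE 0.23, adjusted p = 0.00249). With offsets for base composition, described further on, POMP was not called, at 0.15 for A content and, with its sign turned, −0.27 for GC content. PSMG1, of the chaperone pair that builds the alpha ring, was at 24.6 and 28.3 CPM in shCtrl and at 51.95 and 53.7 CPM in shFOXK2 (log2 fold change 1.00, SE 0.25, adjusted p = 0.00548). Its partner PSMG2 was at 67.2 and 67.6 CPM in shCtrl and at 65.1 and 71.5 CPM in shFOXK2 (log2 fold change 0.02, adjusted p = 0.958), with overlapping groups. The other pair, PSMG3 and PSMG4, had log2 fold changes of 0.60 (adjusted p = 0.0598) and 0.50 (adjusted p = 0.158).

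The other activators and the inhibitor were not called. PSME3, the nuclear relative of PA28, was at 236 and 275 CPM in shCtrl and at 296 and 197 CPM in shFOXK2 (log2 fold change −0.05, adjusted p = 0.886). PSME4 stood at 0.31 on the log2 scale (SE 0.30, adjusted p = 0.42) with shCtrl libraries as far apart as 138 and 68.65 CPM, and without shCtrl replicate 1 it was called higher (0.87, adjusted p = 0.0177). PSMF1, the inhibitor, stood at −0.26 on the log2 scale (SE 0.24, adjusted p = 0.385).

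**Figure D3:**
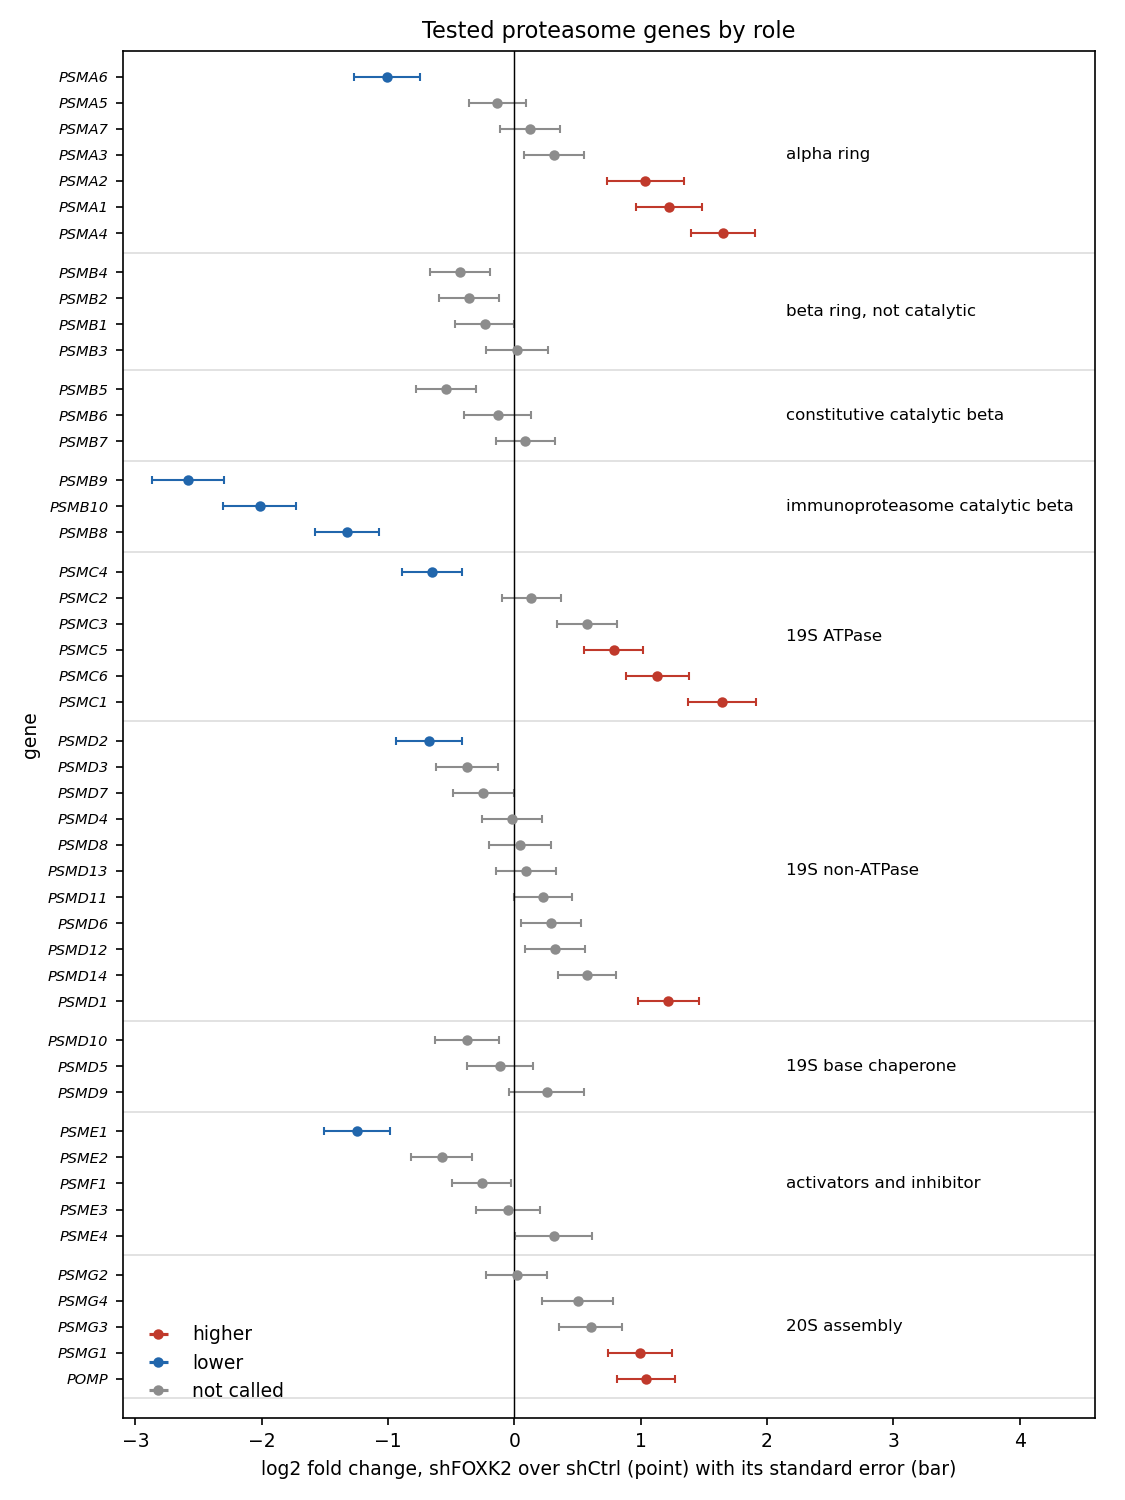
Log2 fold change of shFOXK2 over shCtrl (point) and its SE (bar) for the 47 tested proteasome genes, grouped by role and coloured by call at an adjusted p-value under 0.05. The immunoproteasome genes lie furthest to the left, from −2.58 to −1.32, and the alpha ring, ATPase, 19S and assembly groups each hold a gene at or above 1.00.

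Proteins that bind the proteasome were taken from a separate list of 10 genes, of which 2 rose (20%, against 25.7% of all tested genes), 1 fell (10%, against 22.7%) and 7 were not called. UCHL5, a deubiquitinase of the cap, was at 21.96 and 18.3 CPM in shCtrl and at 56.7 and 64.1 CPM in shFOXK2 (log2 fold change 1.58, SE 0.26, adjusted p = 0.000306). SEM1, a small subunit of the lid, was at 58.2 and 54.9 CPM in shCtrl and at 95.6 and 176 CPM in shFOXK2 (log2 fold change 1.26, SE 0.29, adjusted p = 0.00302). UBE3C, a ubiquitin ligase of the cap, fell (log2 fold change −0.72, SE 0.23, adjusted p = 0.019). ADRM1, USP14, AKIRIN2 and PAAF1 were not called, and their groups overlapped.

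NFE2L1 encodes NRF1, the factor that raises proteasome genes together when proteasome activity is short. It was at 539 and 583 CPM in shCtrl and at 208 and 196 CPM in shFOXK2 (log2 fold change −1.47, SE 0.23, adjusted p = 0.000211). Of the 9 genes listed with it, itself included, 5 fell (55.6%, against 22.7% of all tested genes), 1 rose (11.1%, against 25.7%) and 3 were not called. The others that fell were its relative NFE2L3 (−1.68), the segregase gene VCP (−1.31), which draws NRF1 out of the ER membrane, and the small MAF partners MAFF (−1.80) and MAFK (−1.80). NGLY1, which removes the glycans of NRF1, rose (log2 fold change 0.90, SE 0.27, adjusted p = 0.0133), while DDI2, the protease that cleaves it, did not pass (0.86, adjusted p = 0.0835). The median log2 fold change of the list was −1.31.

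In the ubiquitin list 11 of 12 genes were tested, of which 1 rose (9.09%, against 25.7% of all tested genes), 4 fell (36.4%, against 22.7%) and 6 were not called. UBB, a polyubiquitin gene, fell (log2 fold change −1.13, SE 0.25, adjusted p = 0.00247). RPS27A, which encodes ubiquitin fused to a ribosomal protein, was not called (0.19). The activating enzyme genes diverged, with UBA1 lower (−0.66, adjusted p = 0.0337) and UBA6 higher (1.33, adjusted p = 0.00904). The shuttle gene UBQLN2 fell (−1.11, adjusted p = 0.00296), and RAD23B was not called (−0.06).

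Base composition of the transcripts moved with the calls. The 9 proteasome genes that rose had a median A content of 29.0%, the 7 that fell 23.9% and the 31 not called 25.7%. Among all tested genes with a value the medians were 29.3%, 23.7% and 26.1%, so this was shared by the whole table, and its part in the proteasome result was not tested. When a smooth offset on A content was fitted in each library, the log2 fold changes of all genes shifted by a median of 0.25 and those of the proteasome genes by 0.30. Under that offset PSMB9, PSMB10 and PSMB8 remained lower (−2.22, −1.66 and −0.96), as did PSME1 (−0.95) and PSMA6 (−1.22), and PSMA4, PSMC1, PSMA1, PSMD1, PSMG1 and PSMC5 remained higher. The difference between immunoproteasome and constitutive genes was −1.75. POMP, PSMC6, PSMA2, PSMC4 and PSMD2 were no longer called, at 0.15, 0.23, 0.56, −0.34 and −0.33, and the offset on GC content lost the same genes. Calls were gained as well. PSMC3, PSMG3, PSMG4 and PSMD9 were called higher under either offset (0.91, 0.93, 0.85 and 0.60 for A content), and PSMD11 was called higher under the A-content offset (0.56). PSMA5 and PSMD10 were called lower under the GC offset, at −0.91 (adjusted p = 0.0147) and −0.80 (adjusted p = 0.00983). The median shift of that offset was 0.18 over all genes, and POMP changed sign under it (−0.27, adjusted p = 0.421). Under the A-content offset PSMC2, with 32.1% A, went from 0.13 to a call of lower (−0.79, adjusted p = 0.00884). With the GC offset PSMC2 was at −0.50 and was not called (adjusted p = 0.0564).

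**Figure D4:**
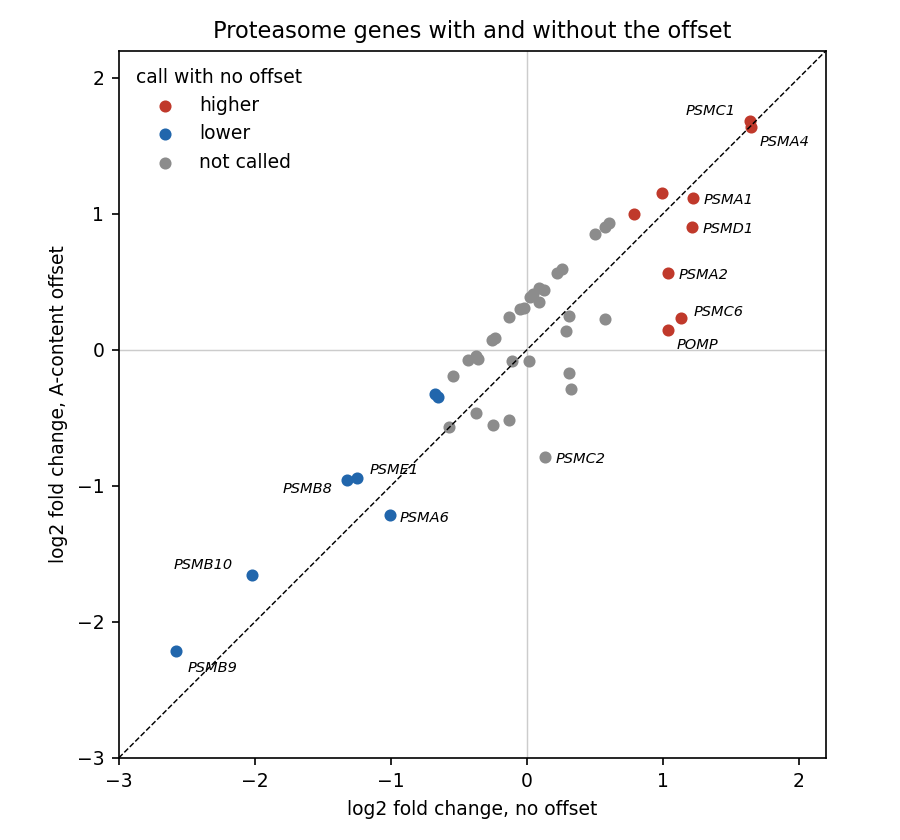
Log2 fold change of each tested proteasome gene with no offset (horizontal) and with the A-content offset (vertical), 1 point per gene, coloured by the call with no offset, with the dashed line where the values are equal. PSMB8, PSMB9, PSMB10 and PSME1 stay low on both axes, whereas POMP and PSMC6 drop from above 1 to 0.15 and 0.23.

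Overlapping genes and copies bear on a few values. PSMB10 shares 39.4% of its exon bases with a protein-coding gene on the same strand, and PSMB8 shares 17.3% with PSMB8-AS1 and 139 bases with PSMB9 on the opposite strand. PSMB8-AS1 had 16 to 37 counts per library, far below the 545 to 1870 of PSMB8. PSMA1 shares 26.7% of its exon bases with another protein-coding gene on its strand. The 32 genes whose symbols name them as pseudogene copies of proteasome genes held in all 139 and 119 counts in the shCtrl libraries, against 136 and 227 with shFOXK2. PSMC1P1 and PSMC1P2, copies of PSMC1, rose with it, from 12 and 14 to 28 and 54 counts and from 0 and 1 to 25 and 53 counts, but reads that fit several copies equally well are as a rule dropped in counting, so their values are uncertain.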

How the data were processed

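Poly(A) RNA was sequenced from 4 OVCAR5 libraries (2 shCtrl, 2 shFOXK2), grouped and numbered as their titles say. Per the study's methods and the submitters' processing notes, the authors aligned single-end reads of 50 bases to hg38 with STAR 2.5.2, counted them per gene with HTSeq and deposited raw counts without normalization. The annotation and the strand setting of the counting were not given in the sources used here.

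Genes were filtered with filterByExpr, scaled with TMM and compared by the 2-sided quasi-likelihood F test of edgeR 4.0.16 (R 4.3.3), with p-values adjusted by Benjamini and Hochberg's method over 16417 genes and called under 0.05. The SE was |log2 fold change|/√F, and 95% intervals used the test's degrees of freedom. Every gene matching the symbol rule is named, together with FOXK2 and genes of lists of proteasome-bound proteins, NRF1 regulators, ubiquitin supply, immunoproteasome regulators and cell type markers. Some genes of these lists are counted but not reported here by name. The members and lists were chosen with earlier results of these data known. GENCODE v44 gave positions, lengths and base composition. The promoter window was extended to 20 bases after the start after the PSMB8 sequence had been seen. The test was tried on simulated counts.

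Alternatives were the DESeq2 1.42.0 Wald test, DESeq2 size factors, library size alone, no filter, at least 10 counts in every library, the replicate number as a block, lowess offsets (span 0.2) on GC or A content with and without the block, and fits without each of the libraries. A block with crossed replicate numbers was added after seeing the data.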

Additional observations from a re-analysis of the deposited data

How the results depend on the processing

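With 2 libraries in a group, every p-value rests on sharing variance between genes, and a left-out library leaves a lone sample that is assumed to vary like the others. Of the 16 called genes, PSMA1, PSMA4, PSMB8, PSMB9, PSMB10, PSMC1, PSMD1, PSME1 and PSMG1 were called in all 14 alternatives. Leaving out 1 library gave 7 to 9 genes higher and 4 to 10 lower, with the lowest counts without shFOXK2 replicate 2, and a difference between immunoproteasome and constitutive genes of −1.80 to −1.74. That difference was −1.74 with the A-content offset and the replicate block. With all 4 libraries the alternatives gave 9 to 12 higher and 6 to 9 lower. Same-numbered libraries did not deviate together (r = −0.113 over 16417 genes), and no label says what a number shares. The replicate block gave 9 higher and 6 lower and lost PSMC4 (−0.65, adjusted p = 0.0778), and crossed numbers gave 12 higher and 9 lower.

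Genes that changed sign were, apart from POMP, not called in the reported comparison, and the causes were not tested. With the GC offset, the GC offset and block, the A-content offset, and the A-content offset and block, in this order, PSMA3 was at −0.092, −0.094, −0.17 and −0.17, PSMB6 at 0.19, 0.14, 0.24 and 0.20, PSMC2 at −0.50, −0.48, −0.79 and −0.78, PSMD4 at 0.33, 0.34, 0.31 and 0.31, PSMD12 at −0.46, −0.46, −0.29 and −0.29, PSME3 at 0.16, 0.13, 0.30 and 0.28, and PSMG2 at −0.30, −0.28, −0.0799 and −0.073. POMP was at −0.27 and −0.21 with the GC offset alone and with the block. With the A-content offset alone and with the block, PSMB1 was at 0.087 and 0.081 and PSMF1 at 0.074 and 0.06996. The DESeq2 Wald test gave −0.059 for PSMB3, −0.034 for PSMD8 and −0.059 for PSMG2, and no filter gave −0.0803, −0.056 and −0.084 for these and −0.014 for PSMB7 and −0.0088 for PSMD13. PSMD4 was at 0.026 with library size alone and 0.029 with at least 10 counts in every library. Without single libraries, sign changes occurred in PSMA7 (−0.10 to 0.27), PSMB3 (−0.25 to 0.23), PSMB6 (−0.52 to 0.13), PSMB7 (−0.13 to 0.22), PSMC2 (−0.041 to 0.20), PSMD4 (−0.24 to 0.11), PSMD5 (−0.41 to 0.085), PSMD8 (−0.22 to 0.24), PSMD13 (−0.14 to 0.24), PSME3 (−0.40 to 0.18), PSME4 (−0.18 to 0.87) and PSMG2 (−0.082 to 0.059). Over the 47 genes, 374 values with all 4 libraries and 157 with a library left out kept direction and side of the threshold, 21 and 9 fell short of it, 31 and 5 gained a call and 44 and 17 changed sign.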
